A study of Mus musculus with 16 samples.

Results

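The liver burns fatty acids in mitochondria and peroxisomes, turns the acetyl-CoA that results into ketone bodies, and switches on many genes of both routes through the nuclear receptor PPARA. Of the 16793 genes in the deposited table, 40 of these were followed here: regulators, the import and carnitine steps, the mitochondrial and peroxisomal enzymes, a ketone body dehydrogenase, the acyl-CoA thioesterases and other PPARA targets. The rule took them by gene name and used no measured value, but the list was drawn up with earlier results of these data known. All 40 were in the table and passed the filter on low values.

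Polyadenylated RNA was sequenced from liver of mice carrying induced primary liver cancer, at the end of the experiment, in 16 libraries that form 4 groups of 4. One experiment was surgical and used female mice, which underwent a sham operation or ovariectomy (OVX), the removal of the ovaries and with them of the main source of estrogen. In the vector experiment, mice had an empty vector or overexpressed LCAT in the liver, the enzyme that esterifies cholesterol on lipoproteins in plasma. Every group, the controls included, was labelled wild type (WT) and carried the cancer induction, so no comparison below involves a healthy liver. The agent that induced the cancer, the strain and age of the mice, the sex in the vector experiment, the vehicle and promoter behind LCAT, and whether tumour or surrounding tissue was taken are not stated in the labels read here. Nor do they say that each library came from its own animal, so p-values measure the spread between these libraries.

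As background, a long-chain fatty acid is bound and activated to its CoA ester at the cell and organelle membranes, passed into mitochondria through the carnitine shuttle, and shortened there by acyl-CoA dehydrogenases, hydratases, hydroxyacyl-CoA dehydrogenases and thiolases, whose electrons pass through the flavoprotein ETF. Peroxisomes shorten very long and branched chains with a separate set of enzymes. PPARA, paired with RXR, binds direct repeats spaced by a single base (DR1 elements) and is most active in the fasting liver, where its coactivator PGC-1alpha (Ppargc1a) and the transcription factor CREBH (Creb3l3) act with it.

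Depth, as recovered reads, was 21428827 to 25850761 for sham, 17782178 to 27110501 for OVX, 14412808 to 20659336 for vector and 12562943 to 19248762 for LCAT. Values below are normalized reads, read counts that the authors had divided by a factor per library, and the sum of normalized reads was 20122807 to 22580423 in sham against 17489003 to 18392899 in OVX libraries, and 17577762 to 18127156 in vector against 19412692 to 21814465 in LCAT libraries. Set to equal totals instead, the median log2 change of all genes moved to 0.24 with OVX and to -0.18 with LCAT, from 0.0032 and 0.0045 as deposited. Hepatocyte markers were present throughout, with 11 of the 12 listed in the table and none at 0. Bulk tissue cannot tell fewer cells of a type from less RNA per cell. The summed hepatocyte markers were 3098708 to 4251979 in sham, 2681168 to 2948746 in OVX, 2834326 to 3064587 in vector and 2521243 to 3470203 in LCAT libraries. All 10 proliferation markers were found, summing to 180 to 329 in sham, 1756 to 3568 in OVX, 1019 to 1298 in vector and 890 to 1535 in LCAT libraries. The 7 bile duct markers summed to 15320 to 21738, 35705 to 103673, 67844 to 85188 and 22684 to 30353 in the same order of groups, and the 9 Kupffer cell and macrophage markers to 6380 to 6839, 5027 to 6207, 1709 to 1938 and 3531 to 6250. The 7 liver tumour markers summed to 9480 to 11761 in sham, 13943 to 30195 in OVX, 10713 to 13400 in vector and 6705 to 14077 in LCAT libraries. The part of these cell types and of tumour tissue in the results below was not tested.

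In sham, OVX and LCAT, libraries 2 and 3 lay between libraries 1 and 4 for many genes. On a scale that runs from library 4 at 0 to library 1 at 1, over genes with a group mean of at least 50 that differed at least 2-fold between these ends, library 2 lay at a median of 0.655 in sham, 0.765 in OVX and 0.427 in LCAT, and library 3 at 0.456, 0.619 and 0.387. Of the 40 members, 22 had both middle libraries between the ends in sham, 27 in OVX, 27 in LCAT and 8 in vector, against 54.0, 40.5, 58.3 and 11.2% of all genes. What places them there was not tested. All tests were therefore also run on the end libraries alone (1 and 4 of sham, OVX and LCAT), and the counts they gave stand beside those of the whole set and of its roles. All 4 vector libraries were kept in these tests. The OVX test thus held 2 libraries against 2 and the LCAT test 2 against 4, so their counts do not compare the strength of the 2 effects.

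DR1 elements were looked for first, since they are the letters that PPARA reads. The window searched was the RefSeq promoter of each gene on GRCm38.p6, 250 bases before to 50 after the start, available for 35 members, and the motif was AGGTCA, then any base, then AGGTCA, on either strand with at most 2 mismatches at its 12 fixed letters. It occurred in 6 of the 35 members (17.1%), in 1190 of 27025 genes with a promoter (4.4%) and in 6 of 69 other genes of the pathway (8.7%). With at most 1 mismatch the counts were 2 of 35 members (5.71%) and 0.644% of all genes, and no member had an exact match. The 2 closest matches were upstream of Fabp1 and Acot12. The sequences below are those of the 6 members with a match; they run 5′ to 3′ on the strand of the gene, and capitals mark the match.

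Fabp1, chr6:71199629-71199826, plus strand, 1 mismatch: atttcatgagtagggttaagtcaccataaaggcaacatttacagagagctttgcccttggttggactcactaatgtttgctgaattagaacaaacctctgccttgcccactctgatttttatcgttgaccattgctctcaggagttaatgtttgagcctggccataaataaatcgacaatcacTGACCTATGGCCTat
Acot12, chr13:91741271-91741511, plus strand, 1 mismatch: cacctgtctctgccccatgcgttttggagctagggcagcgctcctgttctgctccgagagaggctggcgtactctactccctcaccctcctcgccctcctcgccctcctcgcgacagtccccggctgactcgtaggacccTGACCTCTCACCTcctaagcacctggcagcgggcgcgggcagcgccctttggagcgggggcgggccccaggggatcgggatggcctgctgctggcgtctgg
Acot4, chr12:84038129-84038378, plus strand, 2 mismatches: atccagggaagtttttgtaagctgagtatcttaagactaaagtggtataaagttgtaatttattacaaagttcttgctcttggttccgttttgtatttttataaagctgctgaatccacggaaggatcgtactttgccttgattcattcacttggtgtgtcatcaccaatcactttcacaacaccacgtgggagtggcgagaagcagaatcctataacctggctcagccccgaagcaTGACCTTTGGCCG
Etfa, chr9:55512285-55512344, minus strand, 2 mismatches: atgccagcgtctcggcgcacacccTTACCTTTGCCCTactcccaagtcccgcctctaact
Slc25a20, chr9:108662134-108662162, plus strand, 2 mismatches: ctgaatgtAGGTGAAAGGTCGgcggagcc
Creb3l3, chr10:81092780-81092808, minus strand, 2 mismatches: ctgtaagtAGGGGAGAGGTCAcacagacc

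The match of Fabp1 lay 67 to 55 bases before its RefSeq start, and that of Acot12 110 to 98 bases before its own. Both of these RefSeq starts fall inside the gene as GENCODE M21 draws it. On that annotation Fabp1 starts at 71199827, just after the match at 71199812 to 71199824. The match of Acot4 lay directly upstream, in the last 13 bases before the start. In Etfa it lay 77 to 65 bases before the start, in Slc25a20 inside the transcribed part, and in Creb3l3 at -209 to -197 from a RefSeq start that falls inside the gene as GENCODE M21 draws it. A match is a string of letters, and its absence from the windows of the other 29 genes says only that these letters were not in them.

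Ovariectomy was followed by lower levels across the fatty acid oxidation genes. Of the 40 members, 30 were lower and 2, Bdh1 and Vnn1, were higher than in sham (limma adjusted p under 0.05), with a median log2 fold change of -0.57. Over all 13059 genes tested, 39.6% passed the threshold, 19% higher and 20.6% lower. The OVX and sham libraries did not overlap for 28 members that were lower and 2 that were higher, where 39% of all genes did not overlap. From the end libraries alone no gene of the table (0% of 13056) passed by limma, with 1688 genes (12.9%) at an unadjusted p under 0.05, nor by edgeR, with 1655, and 35 of the 40 members had a negative change in both. With equal totals 19 members were lower and 4 higher, against 9.23% lower and 34% higher of all genes.

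With LCAT overexpression the set was higher. Of the 40 members, 26 rose and none fell at the threshold, with a median log2 fold change of 0.64, whereas 40.7% of 13095 genes passed, 20.2% higher and 20.5% lower. The libraries did not overlap for 25 members that were higher and 1, Vnn1, that was lower, against 40.5% of all genes. The end libraries alone gave 16 members higher and none lower by limma (24 higher and 0 lower at an unadjusted p under 0.05), where 8.12% of 13040 genes were higher and 8.85% lower (35.3% at an unadjusted p under 0.05). By edgeR they gave 17 members higher and none lower, against 9.39 and 8.14% of all genes. With equal totals 22 members rose and 1 fell, against 13.7 and 30.3% of all genes. Without LCAT library 1, which was the lowest of the group for many members, 32 members rose and Vnn1 fell.

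**Figure D1:**
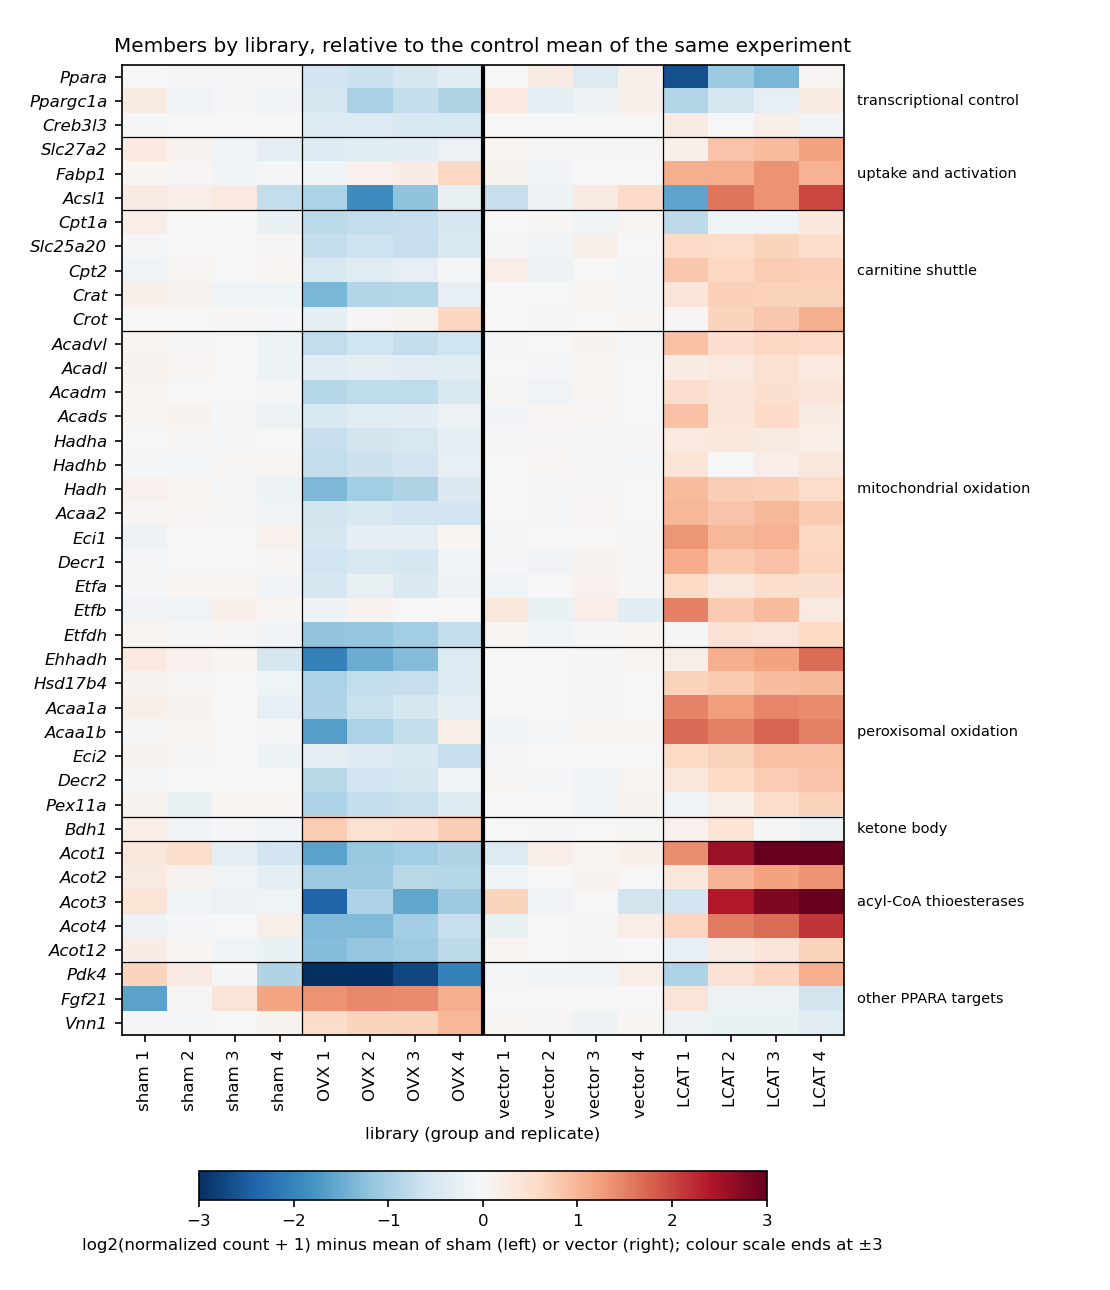
Level of each of the 40 members (rows, by role) in each of the 16 libraries (columns), as log2(value + 1) minus the mean of the control group of the same experiment; the colour scale is in log2 units. Most rows are lower in the 4 OVX libraries than in sham and higher in the 4 LCAT libraries than in vector. After OVX Bdh1, Vnn1 and Fgf21 run the other way, and by less so do the means of Fabp1 and Crot.

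**Figure D2:**
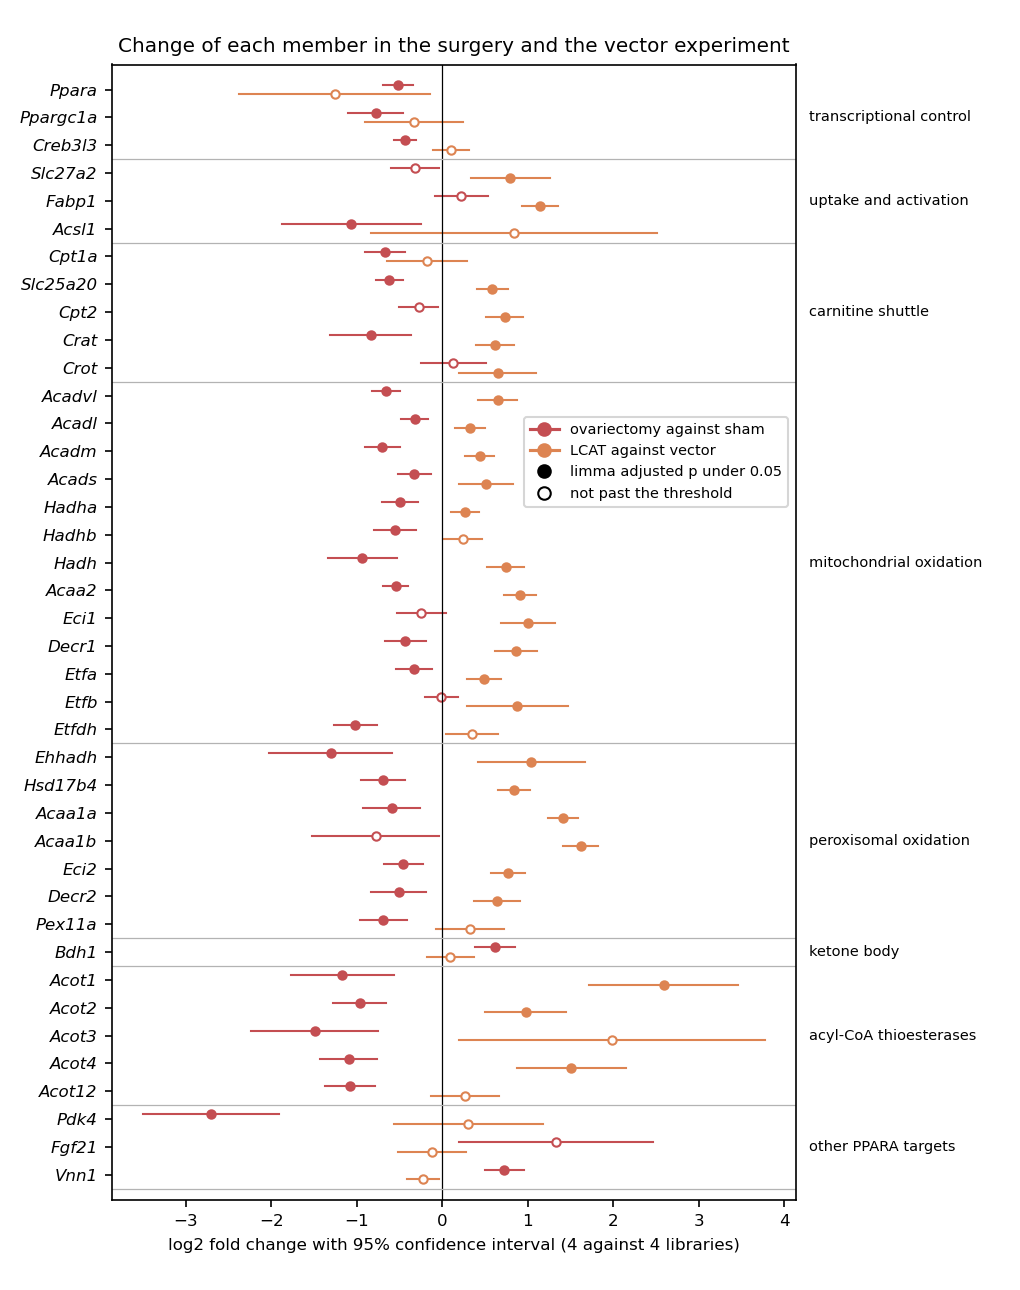
Log2 fold change of each member with its 95% confidence interval, OVX against sham and LCAT against vector, 4 against 4 libraries; filled points passed a limma adjusted p under 0.05. After OVX 30 members lie below 0 with filled points, and with LCAT 26 lie above 0.

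The regulators fell after ovariectomy and did not pass the threshold with LCAT. All 3 were lower after OVX, and none of the 3 was called with LCAT, where their median log2 change was -0.33. On the end libraries alone 0 of the 3 passed in either experiment, with all 3 changes negative after OVX. Ppara (chromosome 15, 85734983 to 85802819, plus strand, GRCm38), the receptor itself, read 1570.1, 1503, 1515 and 1596 normalized reads in sham and 1039, 981, 1085 and 1223 in OVX libraries. Every OVX library was below every sham library, a log2 change of -0.52 (SE 0.078, adjusted p = 0.00155), although the call was lost in the fit over all 16 libraries (adjusted p = 0.292). In the vector experiment Ppara read 1757, 2050.1, 1291 and 1922 with the vector and 275, 808, 673 and 1817 with LCAT. Here LCAT libraries 1 to 3 lay below all vector libraries and library 4 among them, so that the change of -1.26 (SE 0.49, adjusted p = 0.0699) missed the threshold; without LCAT library 4 it was -1.70 and passed, as it did in the fit over 16 libraries (adjusted p = 0.0122).

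Ppargc1a (chromosome 5, 51454250 to 51567726) is the coactivator that drives mitochondrial gene programmes. It read 223, 169.5, 177 and 169.7 in sham and 128, 93.9, 111 and 97.4 in OVX libraries, without overlap and at a log2 change of -0.78 (SE 0.14, adjusted p = 0.00381). With the vector it read 112, 75.6, 82.3 and 101, and with LCAT 49.8, 64.9, 77.2 and 111, which overlapped (log2 -0.33, adjusted p = 0.31). Creb3l3 (chromosome 10, 81084324 to 81098874) encodes the membrane-bound factor that acts with PPARA. It was even within groups, at 4984, 5124, 5141 and 5049.9 in sham and 3898, 3869, 3628 and 3643 in OVX libraries, a log2 change of -0.43 (SE 0.057, adjusted p = 0.000802). Its levels with the vector, 6396, 6568, 6445 and 6567, overlapped those with LCAT, 7759, 6581, 7439 and 6170.1 (log2 0.10, adjusted p = 0.4).

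Of the 3 uptake and activation genes, 1 fell after ovariectomy and 2 rose with LCAT (0 and 1 on the end libraries). Fabp1 (chromosome 6, 71199827 to 71205023), the fatty acid carrier of the hepatocyte cytosol, was the most abundant member per length, at 26226 normalized reads per kilobase of exon in sham. It read 15197, 14883, 13691 and 14242 in sham and 13765, 15922, 16812 and 22149 in OVX libraries, which overlapped (log2 0.22, adjusted p = 0.217). Vector libraries held it at 26700.2, 23603, 24769 and 24476, LCAT libraries at 52830.3, 53227, 63589 and 51348. Every LCAT library was above every vector library, at a log2 change of 1.15 (SE 0.092, adjusted p = 5.41e-05).

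Slc27a2, which imports fatty acids and activates very long chains, read 13061, 11434, 10012 and 8806 in sham and 8183, 8297, 8517 and 9412 in OVX libraries. The highest OVX library overlapped the lowest sham library, and the change of -0.32 did not pass (adjusted p = 0.0666). Its vector libraries read 9864, 9154, 9189 and 9672 and its LCAT libraries 10508, 17134, 18269 and 21990.2. The LCAT libraries were all higher, LCAT 1 only just, at a log2 change of 0.79 (SE 0.20, adjusted p = 0.0152). Acsl1, the main long-chain acyl-CoA synthetase of liver, varied most within groups, reading 6601, 6338, 6809 and 3349.9 in sham and 2871, 1507, 2414 and 4763 in OVX libraries. Sham library 4 fell inside the OVX range, and the call (log2 -1.07, SE 0.36, adjusted p = 0.0429) was lost in 12 of the alternatives. With the vector it read 2306, 3371, 4515 and 5537 and with LCAT 1239.8, 11284, 9507 and 14959, so that LCAT library 1 was the lowest of all 16 and the other LCAT libraries among the highest. The change of 0.84 did not pass (adjusted p = 0.379), and without LCAT library 1 it was 1.65 and passed.

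In the carnitine shuttle 3 of 5 members fell after ovariectomy and 4 of 5 rose with LCAT; the entry enzyme did only the first. On the end libraries alone these counts were 0 and 3. Cpt1a (chromosome 19, 3322334 to 3385733) makes the acylcarnitine and is the step at which malonyl-CoA controls the pathway. Its levels were 12154, 10751, 10512 and 9242 in sham and 6201, 6393, 6622 and 7543 in OVX libraries. Each OVX library was below each sham library, at a log2 change of -0.67 (SE 0.10, adjusted p = 0.00154). Vector libraries held it at 7771, 7851, 7067 and 8140.0, LCAT libraries at 4485, 7049, 7084 and 9628. The LCAT libraries spanned the vector range on both sides (log2 -0.18, 95% interval -0.64 to 0.29, adjusted p = 0.511), and without LCAT library 1 the change was 0.03.

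Slc25a20 (chromosome 9, 108662088 to 108684641) carries acylcarnitines across the inner membrane. It read 1997, 2061, 2027 and 2092 in sham against 1244, 1337, 1269.7 and 1479 in OVX libraries, and 1555, 1506, 1767 and 1574 with the vector against 2383, 2345, 2535 and 2316 with LCAT. Neither pair of groups overlapped, with log2 changes of -0.62 (SE 0.070, adjusted p = 0.000413) and 0.58 (SE 0.079, adjusted p = 0.000797). Cpt2, which returns the acyl group to CoA inside the matrix, read 1268, 1430.3, 1372 and 1444 in sham and 992, 1075, 1169 and 1336 in OVX libraries, a change of -0.28 that did not pass (adjusted p = 0.0531). It read 1481, 1153, 1293 and 1233 with the vector and 2268, 1974, 2162 and 2114 with LCAT, all higher, at a log2 change of 0.73 (SE 0.096, adjusted p = 0.000696). Crat, the short-chain carnitine acetyltransferase, changed by -0.84 and 0.62 (adjusted p = 0.0139 and 0.00166), although it overlaps Dolpp1 on the opposite strand and whether reads were counted by strand is not given. Crot, the peroxisomal octanoyltransferase, did not pass after OVX (log2 0.13, adjusted p = 0.556) and rose by 0.65 with LCAT (adjusted p = 0.0295), a call lost in 9 of the alternatives.

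The mitochondrial enzymes moved together in both experiments. Of 13 members, 11 fell after ovariectomy and none rose, at a median log2 change of -0.50, and 11 rose with LCAT and none fell, at a median of 0.51. On the end libraries alone none of the 13 passed after OVX, where all 13 changes were negative, and 7 rose with LCAT, where all 13 were positive. Among the acyl-CoA dehydrogenases, Acadvl for very long chains (chromosome 11, 70010183 to 70015411) read 5896, 5743, 5609.9 and 5035 in sham and 3332, 3694, 3394 and 3685 in OVX libraries. It read 3916, 3992, 4296 and 3903 with the vector and 7451, 5721, 6175 and 5966 with LCAT. The groups were apart both times, at log2 changes of -0.66 (SE 0.073, adjusted p = 0.000399) and 0.65 (SE 0.099, adjusted p = 0.00141); Dvl2 overlaps it on the opposite strand. Acadl, Acadm and Acads, for long, medium and short chains, changed by -0.32, -0.70 and -0.33 after OVX and by 0.32, 0.44 and 0.51 with LCAT, all past the threshold, though leaving out 1 library ended the Acads call with LCAT in 2 of 8 cases.

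The trifunctional protein carries out the later steps on long chains. Both of its transcripts fell after OVX, by 0.50 for Hadha and 0.55 for Hadhb on the log2 scale. With LCAT, Hadha rose by 0.27 (adjusted p = 0.0169), a call lost in 7 of the alternatives, and Hadhb, at 0.24, did not pass (adjusted p = 0.0832). Hadh, the hydroxyacyl-CoA dehydrogenase for shorter chains (chromosome 3, 131233419 to 131272101), read 5946, 5712, 5258 and 4895 in sham and 2131, 2629.5, 2906 and 4031 in OVX libraries. Its vector libraries were close together at 3061, 2961, 3180.3 and 3119, and its LCAT libraries read 5927, 5118, 5075 and 4545. No libraries overlapped, and the log2 changes were -0.93 (SE 0.18, adjusted p = 0.00441) and 0.74 (SE 0.093, adjusted p = 0.000541). Acaa2, the matrix thiolase that releases acetyl-CoA (chromosome 18, 74779197 to 74806208), had the smallest p of the mitochondrial members with LCAT. It read 10593, 10751, 10600.1 and 9704 in sham, 7056, 7533, 6951 and 7026 in OVX, 7069, 6841, 7543 and 7175 in vector, and 14201, 12945, 14292 and 12374 in LCAT libraries. Both pairs of groups were apart, with changes of -0.54 (SE 0.064, adjusted p = 0.000492) and 0.91 (SE 0.081, adjusted p = 8.78e-05).

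Both enzymes that prepare unsaturated chains rose with LCAT. Eci1, the enoyl-CoA isomerase, did not pass after OVX (log2 -0.25, adjusted p = 0.146) and rose by 1.0 with LCAT (adjusted p = 0.000877), and Decr1, the dienoyl-CoA reductase, changed by -0.43 and 0.86 (adjusted p = 0.0124 and 0.000541). The electron carriers were uneven. Etfdh, which hands the electrons to ubiquinone (chromosome 3, 79603788 to 79629500), read 4115, 3777, 4008 and 3666 in sham and 1707, 1753, 1900.1 and 2384 in OVX libraries. That was the largest fall of the 13 mitochondrial members, -1.02 (SE 0.11, adjusted p = 0.000347). With the vector it read 2252, 2040.4, 2068 and 2237 and with LCAT 2085, 2921, 2803 and 3253, where library 1 overlapped and the change of 0.35 did not pass (adjusted p = 0.0699). Etfa, the alpha chain of ETF, changed by -0.33 and 0.49 (adjusted p = 0.0207 and 0.00328), the first lost in 6 of the alternatives. The beta chain Etfb stood at -0.01 after OVX (95% interval -0.20 to 0.18, adjusted p = 0.927) and rose by 0.88 with LCAT (adjusted p = 0.0271), although vector and LCAT libraries overlapped; leaving out 1 library ended that call in 4 of 8 cases. Etfb and Etfdh overlap Gm45233 and 4930579G24Rik in the annotation, which may share their reads.

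The peroxisomal members showed the same directions. Of 7 members, 6 fell after ovariectomy (median log2 -0.69) and 6 rose with LCAT (median 0.84), with no call in the other direction. On the end libraries alone none passed after OVX, with all 7 changes negative, and 4 rose with LCAT, with all 7 positive. Ehhadh, the bifunctional enzyme of the classic PPARA response (chromosome 16, 21761287 to 21787807), read 4454, 3959, 3751 and 2564 in sham and 889, 1287, 1468 and 2694 in OVX libraries. Only OVX library 4 reached the sham range, and the log2 change was -1.31 (SE 0.32, adjusted p = 0.0128). Vector libraries held it at 1246, 1243, 1197 and 1335, LCAT libraries at 1422, 2669, 2908 and 4021, all higher, at 1.04 (SE 0.27, adjusted p = 0.0168).

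Hsd17b4 (chromosome 18, 50128201 to 50196269) is the other bifunctional enzyme, which serves branched chains and bile acid precursors. It read 6922, 6636, 6439.8 and 5979 in sham and 3383, 3867, 4026 and 4899 in OVX libraries, then 3993, 4045, 4163 and 3990.1 with the vector and 6530.5, 7030.4, 7638 and 7890.0 with LCAT. Neither pair overlapped, at log2 changes of -0.69 (SE 0.11, adjusted p = 0.0022) and 0.84 (SE 0.083, adjusted p = 0.000153). The peroxisomal thiolases Acaa1a and Acaa1b, near copies on chromosome 9 whose reads the counting may have split, had the 2 smallest adjusted p values of all members with LCAT. Acaa1a read 2155, 2181, 2211 and 2138 with the vector and 6081, 5219, 6029 and 5790.0 with LCAT (log2 1.41, SE 0.076, adjusted p = 7.59e-06). Acaa1b read 4734, 4915, 5246 and 5275 with the vector and 16427, 14335, 16902 and 14341 with LCAT (log2 1.62, SE 0.089, adjusted p = 8.13e-06). Their LCAT libraries stood far above the narrow vector range. Acaa1a overlaps Slc22a14 and Myd88, and Acaa1b overlaps Dlec1, on the opposite strand, and whether reads were counted by strand is not given.

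After ovariectomy the thiolases differed in spread. Acaa1a read 3369.9, 3273, 2982 and 2546 in sham and 1600.0, 1914, 2115 and 2513 in OVX libraries, apart by little and down by 0.59 (adjusted p = 0.0137). Acaa1b was even in sham, at 7651, 8305, 8082 and 7834, and ran through 2518, 4153, 4879 and 9129 in OVX libraries. OVX library 4 lay above every sham library and the change of -0.78 did not pass (adjusted p = 0.0884); without it the change was -1.10 and passed. Eci2 and Decr2, which handle double bonds in peroxisomes, changed by -0.45 and -0.51 after OVX and by 0.77 and 0.64 with LCAT, each past the threshold, the fall of Decr2 being lost in 7 of the alternatives. Pex11a, which takes part in peroxisome division (chromosome 7, 79735957 to 79743131), read 1713, 1392, 1654 and 1655 in sham and 834, 956, 1013 and 1199 in OVX libraries. It fell by 0.69 on the log2 scale (SE 0.12, adjusted p = 0.00292). Its vector libraries, 2060.2, 2077, 1963 and 2219, overlapped its LCAT libraries, 1889, 2352, 3045 and 3370.2 (log2 0.32, adjusted p = 0.165), and without LCAT library 1 the change of 0.48 passed.

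**Figure D3:**
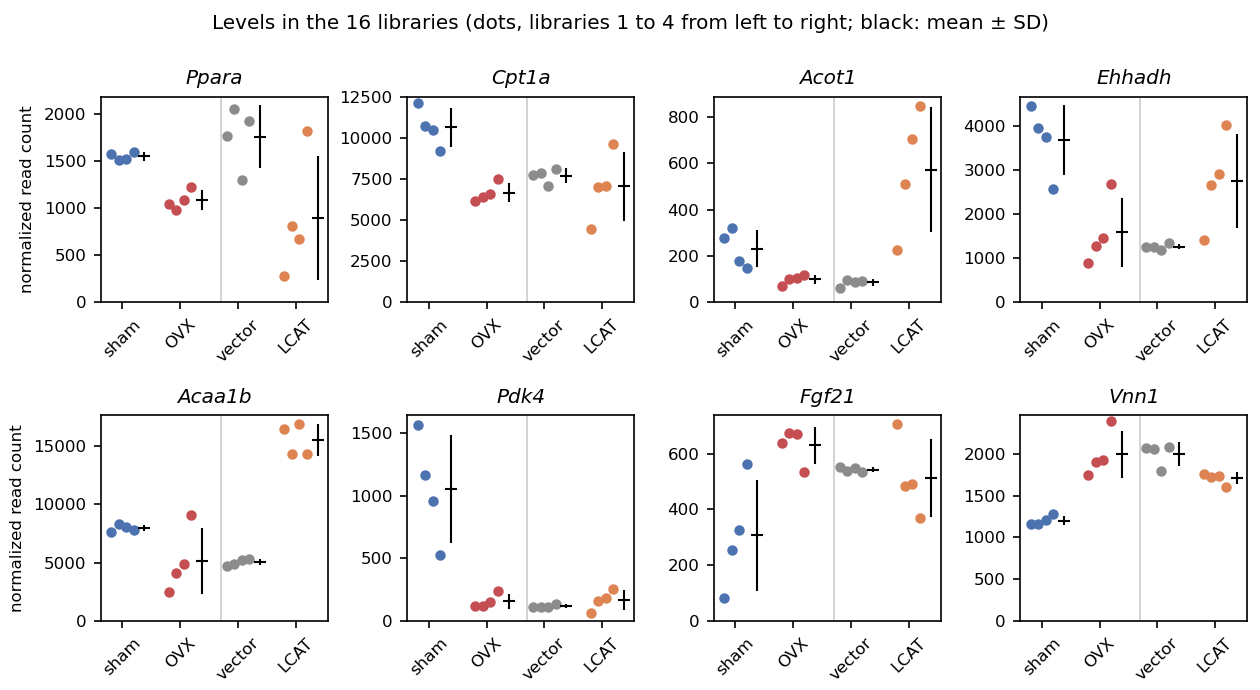
Normalized reads of 8 members (y axis, linear from 0) in each of the 16 libraries by group; dots are libraries, black marks the mean ± SD of 4. Acaa1b and Acot1 are higher in every LCAT than in every vector library, Pdk4 and Cpt1a lower in every OVX than in every sham library, and Acaa1b runs from 2518 to 9129 in the OVX libraries.

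Side by side, both oxidation routes were lower after ovariectomy and higher with LCAT, and the mean of the peroxisomal members was farther from the controls in each. As the mean log2 level of the 13 mitochondrial members set to 0 in the controls, the OVX libraries lay at -0.67 to -0.31 and the LCAT libraries at 0.46 to 0.74. The 7 peroxisomal members lay at -1.09 to -0.30 and 0.70 to 1.14. The mitochondrial mean minus the peroxisomal one was 0.417, 0.274, 0.160 and -0.006 in the OVX libraries, against -0.081 to 0.088 in sham. It was 0.046, -0.348, -0.457 and -0.683 in the LCAT libraries, against -0.060 to 0.063 with the vector. The averages were 0.21 and -0.36, and in each treated group 1 library, OVX 4 and LCAT 1, lay within the control range. The members were chosen with earlier results known, so these differences are given as a description with no test.

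**Figure D4:**
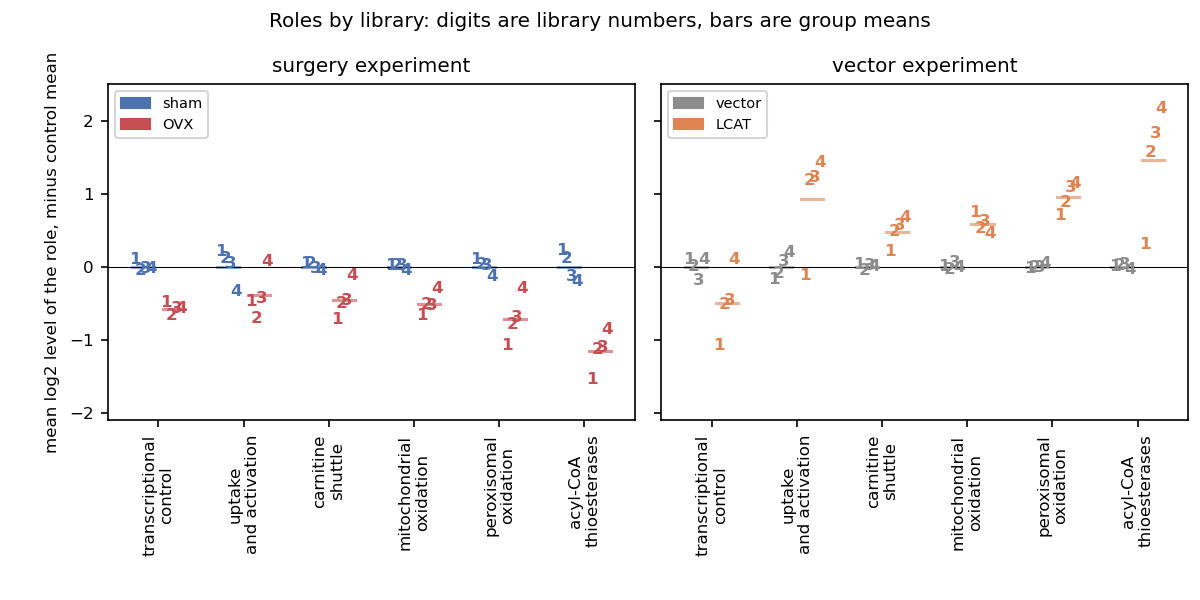
Mean log2 level of the members of each role in each library, centred on the control mean of the same experiment (y axis, log2 units); digits are library numbers. The mitochondrial and peroxisomal means lie below 0 in all OVX libraries and above 0 in all LCAT libraries.

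Ketone body genes split. The only member with that role, Bdh1, converts acetoacetate to beta-hydroxybutyrate (chromosome 16, 31422280 to 31458901). It read 3207, 2619, 2721 and 2619.9 in sham and 4746, 3799.8, 3961 and 4651 in OVX libraries, so that it was higher in every OVX library, at a log2 change of 0.62 (SE 0.10, adjusted p = 0.00248). With the vector it read 4065, 3894, 4021 and 4144 and with LCAT 4424, 5374, 3956 and 3627, which overlapped (log2 0.09, 95% interval -0.18 to 0.37, adjusted p = 0.56). On the end libraries alone Bdh1 passed in neither experiment, at a log2 change of 0.70 after OVX and -0.01 with LCAT.

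Of the other ketone body genes, Acat1, the acetoacetyl-CoA thiolase, changed by -0.75 and 0.59 after OVX and with LCAT (adjusted p = 0.0057 and 0.00157). Oxct1, which activates ketone bodies for burning and is low in hepatocytes, was low here at 66.4 to 99.5 in sham and 179 to 207 in OVX libraries, and changed by 1.16 and -0.36 (adjusted p = 0.000568 and 0.0306). Slc16a6, a transporter that exports ketone bodies from zebrafish liver, changed by -0.31 (adjusted p = 0.0595) and -0.94 (adjusted p = 8.99e-05). Of the 8 ketone body genes outside the 40 members, 2 rose and 3 fell after OVX and 4 rose and 2 fell with LCAT.

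The acyl-CoA thioesterases, which split acyl-CoA back to the free acid, had the lowest median change of the 8 roles after OVX and the highest with LCAT. All 5 fell after OVX (median log2 -1.09), and 3 of 5 rose with LCAT (median 1.51); on the end libraries alone none passed after OVX, with 5 of 5 changes negative, and 1 rose with LCAT. Acot1 to Acot4 are near copies in a row on chromosome 12, from 83987861 to 84060402, so reads could have been shared among them. Acot1, in the cytosol, read 279, 319, 179.6 and 149 in sham and 71.8, 101, 106 and 118 in OVX libraries, and 63.2, 96.3, 88.9 and 93.5 with the vector against 224, 512, 703 and 848 with LCAT. Both pairs were apart, with changes of -1.17 (SE 0.26, adjusted p = 0.00966) and 2.59 (SE 0.38, adjusted p = 0.00126), the latter the largest rise of any member.

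Acot4, in peroxisomes, read 1141, 1236, 1249 and 1424 in sham and 499, 503, 619 and 776 in OVX libraries. It read 337, 387, 396 and 444 with the vector and 613, 1146, 1250.2 and 1724 with LCAT. No groups overlapped (log2 -1.09, SE 0.15, adjusted p = 0.000959, and 1.51, SE 0.28, adjusted p = 0.00363). Acot2, in mitochondria, changed by -0.97 and 0.98, both past the threshold. Acot3, also peroxisomal, was low, at 68.1 to 102 in sham and 13.8 to 39.8 in OVX libraries (log2 -1.49, adjusted p = 0.00833), a call lost in the fit over 16 libraries. Vector libraries held it at 23.7, 13.4, 14.3 and 9.61, LCAT libraries at 9.33, 80.3, 107 and 153. LCAT library 1 sat below all vector libraries while the others were far above, and the change of 1.98 did not pass (adjusted p = 0.0725), though it passed by edgeR, by DESeq2, without LCAT library 1 and in the fit over 16 libraries (adjusted p = 0.0184).

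Acot12 (chromosome 13, 91741512 to 91786148) is a cytosolic acetyl-CoA hydrolase outside that cluster. Its levels were 2446, 2159, 1958 and 1824 in sham and 849.7, 928, 998 and 1211 in OVX libraries, apart and down by 1.08 (SE 0.13, adjusted p = 0.000551). The vector libraries, at 1439.9, 1377, 1333 and 1400.5, lay within the LCAT range of 1169.8, 1653, 1776 and 2244 (log2 0.26, adjusted p = 0.255), and without LCAT library 1 the change of 0.43 passed.

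The other PPARA targets went separate ways. On the end libraries alone 0 of these 3 members passed in either experiment. Pdk4 (chromosome 6, 5483351 to 5496309), the kinase that shuts pyruvate dehydrogenase so that fat is burned instead of glucose, fell most of all members after OVX. It read 1566, 1164, 961 and 523 in sham and 120.0, 117, 148 and 238 in OVX libraries, all lower, at a log2 change of -2.70 (SE 0.35, adjusted p = 0.000751). It read 114, 113, 113 and 138 with the vector and 62.2, 161, 186 and 253 with LCAT, where library 1 fell below and the others above the vector range (log2 0.30, adjusted p = 0.54); without LCAT library 1 the change was 0.72 and passed.

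Fgf21 (chromosome 7, 45613886 to 45615490), the fasting hormone of the liver, varied most in sham, at 81.1, 255, 328 and 564, and read 638, 675, 672 and 534 in OVX libraries. Only OVX library 4 fell within the sham range. Its change of 1.33 did not pass (95% interval 0.19 to 2.47, adjusted p = 0.0634); without sham library 1 it was 0.79, without sham library 4 it was 1.72, and both passed. With the vector it read 552, 538, 549 and 535 and with LCAT 706, 485, 493 and 371 (log2 -0.12, adjusted p = 0.605). Vnn1 (chromosome 10, 23894688 to 23905343), the pantetheinase whose transcript is a strong PPARA target, read 1159, 1158, 1208 and 1284 in sham and 1747, 1909, 1930.0 and 2399 in OVX libraries. It rose in all, by 0.72 (SE 0.10, adjusted p = 0.00108). Vector libraries held it at 2069, 2054, 1793 and 2083, LCAT libraries at 1761, 1729, 1734 and 1601, lower without overlap but not past the threshold (log2 -0.23, adjusted p = 0.0517).

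The effect of LCAT was then set against that of ovariectomy in 1 fit over the 16 libraries, as the log2 change with LCAT minus that with OVX. It was above 0 for 32 members and below 0 for 3, Bdh1, Fgf21 and Vnn1, at the threshold, with a median of 1.18. The Fgf21 difference (-1.45, adjusted p = 0.0467) lost its call in 14 of the alternatives, the replicate block among them, and ran from -1.84 to -0.91 as single libraries were left out. Over 13166 genes, 44.8% passed, 21.9% above and 22.9% below 0. Every mitochondrial, peroxisomal and thioesterase member passed with a positive difference, from 0.65 for Acadl to 3.76 for Acot1. On the end libraries alone 8 of the 13 mitochondrial, 4 of the 7 peroxisomal and 3 of the 5 thioesterase members passed, and all their differences were positive. Differences did not pass for Ppara (-0.74, adjusted p = 0.266), Ppargc1a (0.45, adjusted p = 0.237), Cpt1a (0.49, adjusted p = 0.104), Crot (0.52, adjusted p = 0.129) and Acsl1 (1.90, adjusted p = 0.0844). From the end libraries alone 17 members were above and 1 below 0, against 5.41 and 6.09% of 13101 genes, and with equal totals 27 were above and 3 below, against 11.2 and 41.5% of all genes.

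Both directions were met by 19 of the 40 members, which fell after OVX and rose with LCAT, whereas 867 of 12784 genes tested in both (6.78%) did so. They were Slc25a20 and Crat of the carnitine shuttle, the mitochondrial Acadvl, Acadl, Acadm, Acads, Hadha, Hadh, Acaa2, Decr1 and Etfa, the peroxisomal Ehhadh, Hsd17b4, Acaa1a, Eci2 and Decr2, and the thioesterases Acot1, Acot2 and Acot4. On the end libraries alone 0 genes were called after OVX, so 0 of the 40 members met both directions there. In 34 of 40 members (85%) the 2 changes had opposite signs over all libraries, as in 55.1% of all genes. The experiments share no library.

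**Figure D5:**
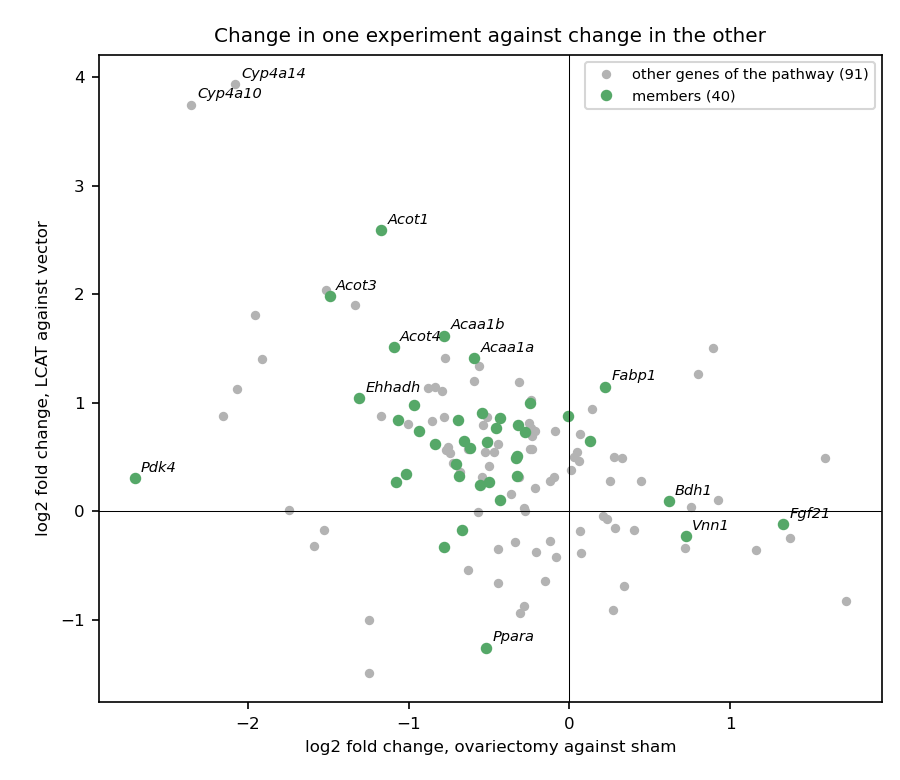
Log2 change with OVX (x axis) against that with LCAT (y axis) for the 40 members (green) and 91 other genes of the pathway (grey). Of the members, 34 lie where the signs are opposite, most of them in the upper left, and Ppara, Ppargc1a and Cpt1a are below 0 on both axes.

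Genes of the pathway outside the 40 members were read from a wider list of 93. After OVX 10 rose and 47 fell (median log2 -0.31), and with LCAT 49 of 91 tested rose and 10 fell (median 0.49). Of 19 mitochondrial genes, 4 rose and 10 fell after OVX and 11 of 18 rose and 3 fell with LCAT. Ech1, another dienoyl-CoA isomerase, changed by -0.78 and 0.86, and Mlycd, which removes malonyl-CoA, by -0.51 and 0.86, all past the threshold. Hsd17b10, a hydroxyacyl-CoA dehydrogenase of branched and short chains, changed by -0.54 and 0.79 (adjusted p = 0.000676 and 0.00437). Ucp2, a mitochondrial carrier, ran against them with 1.37 after OVX (adjusted p = 2.7e-05) and -0.24 with LCAT (adjusted p = 0.187), and Acsl4, which activates arachidonic acid, with 0.34 and -0.69 (adjusted p = 0.00773 and 0.000332).

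Of 33 peroxisomal genes, 2 rose and 15 fell after OVX, and 21 of 32 rose and 1 fell with LCAT. Hacl1, the lyase of phytanic acid breakdown, read 565 to 633 with the vector and 1918 to 2418 with LCAT, and changed by -1.34 and 1.90 (adjusted p = 0.00112 and 5.62e-06). Phyh, which starts that breakdown, changed by -0.56 and 1.33, Amacr, the racemase of branched chains, by -0.31 and 1.19, and the epoxide hydrolase Ephx2 by -0.59 and 1.20, all past the threshold. Slc25a17, a carrier of the peroxisomal membrane, rose after OVX by 0.76 (adjusted p = 0.000275).

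Among 13 further regulators, 6 fell and none rose after OVX, and 2 rose and 1 fell with LCAT. Sirt3, the mitochondrial deacetylase, read 483 to 621 in sham and 277 to 339 in OVX libraries, and 336 to 385 with the vector and 772 to 816 with LCAT (log2 -0.84 and 1.14, adjusted p = 0.000542 and 2.32e-05). The lipins Lpin1 and Lpin2, which act as coactivators of PPARA beside their role in lipid synthesis, fell by 1.59 and 1.24 after OVX. With LCAT they did not pass (adjusted p = 0.77 and 0.278), and LCAT library 1 stood at 437 for Lpin1 and 518 for Lpin2 against 5411 to 7675 and 4432 to 6374 in the other LCAT libraries. Tfam, which maintains mitochondrial DNA, rose by 0.32 with LCAT (adjusted p = 0.0242), and the corepressor Ncor1 fell by 0.65 (adjusted p = 0.0492).

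Of 20 further PPARA targets, 2 rose and 13 fell after OVX (median log2 -0.78), and 11 rose and 3 fell with LCAT (median 0.84). The omega-hydroxylase Cyp4a10 read 929.9 to 1626 in sham, 192 to 343 in OVX, 116 to 244 in vector and 495 to 4770.1 in LCAT libraries (log2 -2.35 and 3.75, adjusted p = 0.000167 and 0.00318), though reads may be shared within the Cyp4a family. Cyp4a12a, of the same family, rose in both (0.80 and 1.26). Plin5, which tethers lipid droplets to mitochondria, fell by 2.15 and rose by 0.87 (adjusted p = 7.59e-05 and 0.000582), and G0s2, an inhibitor of the lipase ATGL, changed by -0.77 and 1.42. Hilpda, another inhibitor of that lipase, fell in both, by 1.25 and 1.49 (adjusted p = 0.000164 and 2.56e-05).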

How the data were processed

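Total RNA was extracted with TRIzol and polyadenylated RNA was sequenced after a BGI protocol, per the labels' protocols. The submitters' processing notes name FastQC, HISAT2, SAMtools, StringTie and the mouse build mm10. Tool versions, the annotation, the counting tool and any use of strand were not given in the sources used here. Each entry of the deposited table was 1 signal value per gene and library, a read count that the authors had scaled by a library factor. Undoing that factor gave whole reads, within 0.01 read, for 100% of the values of each library, so depth was known, 12562943 to 27110501 reads. Such scaling takes most genes as unchanged.

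OVX was compared with sham and LCAT with vector, 4 libraries against 4, each in its own 8 libraries. The test was limma 3.58.1 (R 4.3.3; trended, robust) on log2(value + 1). Genes needed a mean of 10 or more in the libraries of the fit, and p-values were adjusted by Benjamini-Hochberg over all genes tested, with a threshold of 0.05. Fold changes on this scale understate those of low genes. The difference of the effects was a contrast in 1 fit over 16 libraries. The 40 members and the lists of other genes and markers were chosen with earlier results of these data known. Values in every library are given for the regulators, Cpt1a, Bdh1, Pdk4, Fgf21 and Vnn1, and for the 2 members of each role with the smallest p in either comparison; Ehhadh and Acot3 were added after their values were seen, as were the values singled out when 1 library was left out. Alternatives were edgeR 4.0.16 and DESeq2 1.42.0 on the recovered reads, pseudocounts of 0.5 and 5, other filters and scalings, the replicate number as a block, each library left out, and the end libraries alone, the last with edgeR chosen after the data were seen. The main limma fits of OVX against sham and of LCAT against vector were tested on simulated data. The difference of the effects and the alternatives were not. Same-numbered libraries did not deviate together (correlations of -0.04 to 0.12 between experiment arms), so the numbers were not taken to pair them.

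Coordinates and exon lengths came from GENCODE M21 (GRCm38), which held all 40 members, and promoters from the RefSeq table on GRCm38.p6. Protein sequences and the targeting signals in them were not analysed here.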

Additional observations from a re-analysis of the deposited data

Results flagged for a closer look

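In 8 of 160 groups of 4 libraries, 1 library stood apart from the other 3 by more of the group's range than Dixon's test allows; chance flags about 8 of 160. In sham these were library 1 for Ppargc1a (223, others 169.5 to 177) and Acot3 (102, others 68.1 to 70.5), and library 4 for Acsl1 (3349.9, others 6338 to 6809) and Acaa2 (9704, others 10593 to 10751). In vector they were library 4 for Pdk4 (138, others 113 to 114) and library 3 for Vnn1 (1793, others 2054 to 2083). In LCAT they were library 3 for Fabp1 (63589, others 51348 to 53227) and library 1 for Crat (1198, others 1503 to 1536).

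In 35 members the log2 change with LCAT differed from that with OVX, by a test of the difference itself (limma adjusted p under 0.05). The difference, LCAT minus OVX, was 0.53 for Creb3l3, 1.11 for Slc27a2, 0.92 for Fabp1, 1.20 for Slc25a20, 1.0 for Cpt2 and 1.45 for Crat. Among mitochondrial members it was 1.30 for Acadvl, 0.65 for Acadl, 1.14 for Acadm, 0.84 for Acads, 0.76 for Hadha, 0.80 for Hadhb, 1.67 for Hadh, 1.45 for Acaa2, 1.25 for Eci1, 1.29 for Decr1, 0.82 for Etfa, 0.89 for Etfb and 1.36 for Etfdh. For peroxisomal members it was 2.35 for Ehhadh, 1.54 for Hsd17b4, 2.0 for Acaa1a, 2.39 for Acaa1b, 1.22 for Eci2, 1.15 for Decr2 and 1.01 for Pex11a. The thioesterases gave 3.76 for Acot1, 1.94 for Acot2, 3.47 for Acot3, 2.60 for Acot4 and 1.34 for Acot12, and Pdk4 gave 3.01. It was negative for Bdh1 (-0.53), Vnn1 (-0.95) and Fgf21 (-1.45), the last a call lost in 14 of the alternatives, the replicate block among them. The experiments also differ in whatever separates sham from vector livers, which cannot be told apart from the treatments here.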

How the results depend on the processing

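Pseudocounts of 0.5 and 5, no filter, TMM rescaling, and median-of-ratios rescaling left the member counts at 30 lower and 2 higher after OVX and at 26 higher with LCAT. On the end libraries alone no gene was called after OVX by limma or edgeR (all genes 0, members higher 0, lower 0), and LCAT gave 2213 genes by limma and 2286 by edgeR, with 16 and 17 members higher. The difference of the effects then gave 1507 genes, 17 members above and 1 below 0. With equal totals OVX had 4 members higher, Fabp1 and Fgf21 added, and 19 lower, while 4453 of 13089 genes were higher and 1208 lower, against 2484 and 2686 as deposited. Vnn1 was called lower with LCAT (1 member) under equal totals, a mean of at least 50, median of ratios and DESeq2, and Ppara (1 member) in the fit over 16 libraries.

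Median log2 changes by role with equal totals after OVX were -0.28 (control), -0.38 (carnitine), -0.26 (mitochondrial), -0.45 (peroxisomal), 0.86 (ketone body) and 0.96 (other targets). With LCAT they were 0.43 (carnitine), 0.33 (mitochondrial), 0.66 (peroxisomal), -0.09 (ketone body) and -0.30 (other targets). The deposited scaling and equal totals each apply a single factor to all genes of a library, and which of them is right was not tested. Signs turned for genes near 0: Etfb after OVX (0.01 with TMM, 0.23 with equal totals, 0.00 with edgeR), and with LCAT Creb3l3 (-0.09 with equal totals) and Bdh1 (-0.09 with equal totals, -0.01 and -0.02 on the end libraries with limma and edgeR). For these the cause was not tested.

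Leaving out 1 library gave 27 to 33 members lower and 2 to 3 higher after OVX (3677 to 6528 genes called), 23 to 32 higher and 0 to 1 lower with LCAT (3903 to 6828), and 32 to 35 above and 2 to 3 below 0 for the difference (5290 to 6638). Across these fits Etfb ran from -0.05 to 0.04 and Crot from -0.04 to 0.26 after OVX, and Cpt1a from -0.34 to 0.03, Bdh1 from -0.01 to 0.17 and Fgf21 from -0.28 to 0.03 with LCAT. With the replicate number as a block, a pairing that the data did not bear out (in each experiment 1 of 4 libraries was closest to its own number), OVX gave 2 members higher and 27 lower of 4339 genes called, LCAT 25 higher of 4558, and the difference 33 above and 2 below 0 of 5594. A check of protein targeting signals was planned and not run.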
